A study of Mus musculus with 5 samples.

Results

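The HoxC cluster is the stretch of mouse chromosome 15 that carries the genes Hoxc4, Hoxc5, Hoxc6, Hoxc8, Hoxc9, Hoxc10, Hoxc11, Hoxc12 and Hoxc13. It was taken here as the bases from 102.74 to 102.88 Mb of build mm9, a window of 140 kb, and its members were all binding events that the deposited lists place there. There were 26 such events among 87129 in all. A binding event is the single base at which the authors' caller placed a bound site. The members were chosen by the measured positions of the events in these same lists, so their numbers and levels are given as a description, with no test.

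Events came from ChIP-seq, the sequencing of DNA pulled down together with a chosen protein. The cells were progenitors of motor neurons differentiated from mouse embryonic stem cells. All groups were Ainv15 lines carrying a tagged factor that doxycycline switches on, and shared patterning with all-trans retinoic acid (1 µM) and the hedgehog agonist SAG (0.5 µM), begun on day 2. The native Olig2 list came from day 4 cells of the line with inducible V5-tagged Olig2, without doxycycline, and an antibody to Olig2. The V5 Olig2 list came from day 4 cells of that line with doxycycline (3 µg/ml) and an antibody to V5. The V5 Hoxc9 list came from day 5 cells with inducible V5-tagged Hoxc9 and an antibody to V5. The Flag Hoxc9 list came from day 5 cells of another line with inducible Flag-tagged Hoxc9 and an antibody to Flag. Cells of both Hoxc9 lists had doxycycline (3 µg/ml). Each list stood for 1 library, except the V5 Hoxc9 list, which was 1 list for 2 libraries. There were no replicate lists, and a mock ChIP in uninduced cells was not analysed here. The Hoxc9 lists measured an induced factor, not the cells' own Hoxc9 protein. The lists hold binding and no expression, so the cell type was not checked against marker genes.

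Hox genes encode homeodomain transcription factors that give cells their position along the body axis, and they lie in clusters in the order of the body levels at which they are used. In the spinal cord Hoxc9 marks thoracic levels and is known to repress Hox genes of limb levels, Hoxc6 and Hoxc8 are used at forelimb (brachial) levels, Hoxc4 and Hoxc5 at cervical levels, and Hoxc10 to Hoxc13 further towards the tail. Olig2, of the basic helix-loop-helix family, binds E-box sequences and is needed for motor neurons to form. In the RefSeq annotation of the later build GRCm38.p6, all 9 genes were found, in the order Hoxc13, Hoxc12, Hoxc11, Hoxc10, Hoxc9, Hoxc8, Hoxc6, Hoxc5, Hoxc4 with rising coordinate. By start coordinate, the noncoding genes Hotair, between Hoxc12 and Hoxc11, Mir196a-2, between Hoxc10 and Hoxc9, and Mir615, between Hoxc5 and Hoxc4, lie among them. Gene ends were not used, so a noncoding gene may lie within a HoxC gene. The low end of the window is thus the side of Hoxc13 and the high end the side of Hoxc4. Positions of that build were not set against events in mm9, so no event below is assigned to a gene, exon or intron.

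Both factors had events in the cluster, and Hoxc9 had more of them with both tags. The window held 7 of 11070 V5 Hoxc9 events, 12 of 49288 Flag Hoxc9 events, 5 of 15700 native Olig2 events and 2 of 11071 V5 Olig2 events. Per 100 kb this was 5.00 V5 Hoxc9 events against 0.432 over the chromosomes, and 8.57 Flag Hoxc9 events against 1.92. It was 3.57 native Olig2 events against 0.612, and 1.43 V5 Olig2 events against 0.432. The density was therefore 11.6 times that of the whole list for V5 Hoxc9, 4.46 times for Flag Hoxc9, 5.83 times for native Olig2 and 3.31 times for V5 Olig2. By density relative to its own list, native Olig2 with 5 events thus stood above Flag Hoxc9 with 12. The comparison with other windows below gives these lists in the opposite order.

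The chromosomes were cut into 18332 windows of the same length, 1 of them the HoxC window, to show how often such numbers occur. At least 7 V5 Hoxc9 events were found in 67 windows (0.365%), and at least 12 Flag Hoxc9 events in 422 (2.3%). At least 5 native Olig2 events were found in 576 windows (3.14%), while 2 or more V5 Olig2 events were found in 2654 (14.5%). By summed IP reads, the reads assigned to events in the immunoprecipitated library, the HoxC window stood further out for Hoxc9. Its 2116.4 V5 Hoxc9 IP reads were reached in 6 windows, itself included, and its 5743.6 Flag Hoxc9 IP reads in 9. For Olig2, the 168.4 native IP reads were reached in 1195 windows and the 166.5 V5 IP reads in 1329. The HoxC window was thus among the few windows with most listed Hoxc9 reads and was far less extreme for Olig2.

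**Figure D1:**
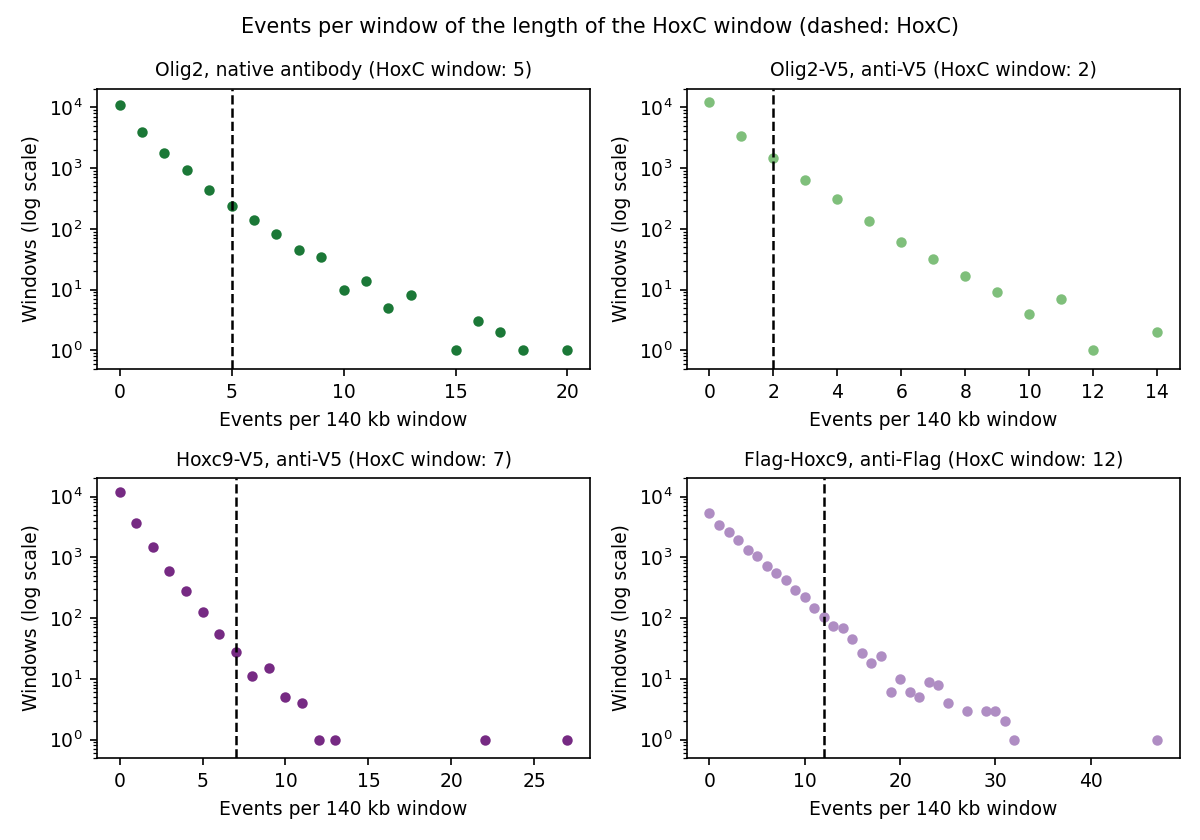
Number of windows (vertical, log scale) against events per 140 kb window (horizontal), 1 panel per list, with the HoxC window as the dashed line. The line at 7 V5 Hoxc9 events lies near the end of the distribution, with 67 windows at or beyond it, while that at 2 V5 Olig2 events has 2654 windows at or beyond it.

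No list had an event in the first 70 kb of the window, the side of Hoxc13, and all 26 events lay in the other 70 kb. The first event, of the Flag Hoxc9 list, was at 102823414, 83.4 kb from the window start. The V5 Hoxc9 events ran from 102828564 to 102870473, a span of 41.9 kb, and the Flag Hoxc9 events ended at 102870488. Native Olig2 events ran from 102846264 to 102867058, and the V5 Olig2 events lay at 102860729 and 102864425. The last 20 kb of the window, the side of Hoxc4, held 4 of the 5 native Olig2 events, both V5 Olig2 events, 3 of the 7 V5 Hoxc9 events and 6 of the 12 Flag Hoxc9 events. A stretch with no listed event had none that passed the authors' threshold. It is not shown to be unbound.

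**Figure D2:**
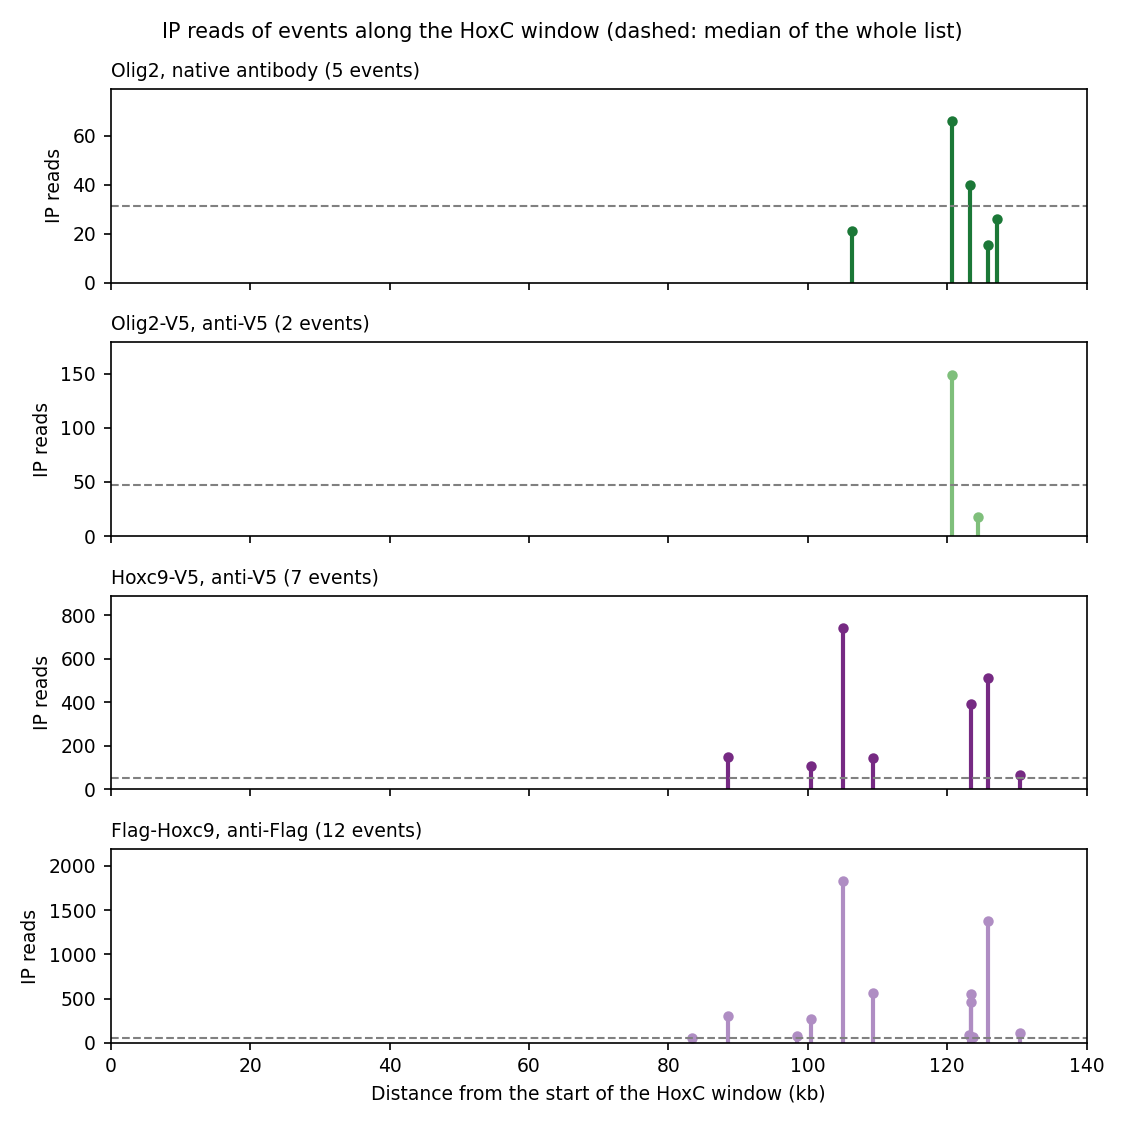
IP reads of each event (vertical) against its distance from the window start in kb (horizontal), 1 panel per list, each with its own scale and with the median of the whole list as a dashed line. All events lie beyond 83.4 kb, and the tallest Hoxc9 events of both tags share their places.

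The Hoxc9 events formed a short series of places that both tags gave. All 7 V5 Hoxc9 events had a Flag Hoxc9 event within 200 bp (exact Clopper-Pearson 95% interval 59.0 to 100%, which covers counting error only), beside 81.7% over the whole V5 Hoxc9 list. In the other direction, 8 of 12 Flag Hoxc9 events had a V5 Hoxc9 event (66.7%, interval 34.9 to 90.1%), beside 22.4% over the whole Flag list. The Flag list is the longer one, which bears on the first share. Over the whole Flag list, events with a V5 event had a median of 131 IP reads and those without one 51. The HoxC events of both lists ranked high by IP reads, so neither list share is one of events with like IP reads. The part of IP reads in these shares was not tested. The Flag share counts a pair of Flag events that lie next to the same V5 event. The intervals take events as independent, which such neighbours are not, and do not measure the spread between libraries.

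The strongest event of the cluster lay at 102845099, with 742 V5 Hoxc9 IP reads against 16.9 control reads. It ranked 5 of 11070 by IP reads. Its Flag partner, 1 bp away at 102845100, had 1824 IP reads against 12.5 control reads and ranked 13 of 49288. This place was the highest of the window with both tags.

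The second place was at 102865795 in the V5 list, with 512 IP and 11.8 control reads and rank 18. The Flag event 3 bp away at 102865792 had 1377 IP and 8.3 control reads and ranked 40. Both lists thus had their second highest event of the window here, 20.7 kb from the first towards the side of Hoxc4.

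The next place was resolved differently by the lists. The V5 Hoxc9 list gave 1 event at 102863377 with 395 IP and 8.8 control reads and rank 50. The Flag Hoxc9 list gave an event 8 bp away at 102863385 with 463.2 IP reads (rank 865), and another 54 bp from it at 102863331 with 548.9 IP reads (rank 593). Each of these Flag events had 2.5 control reads. Together they held 1012.1 IP reads, more than at any other Flag event of the window apart from those of the 2 places above.

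The other V5 events were weaker. At 102828564 there were 148 IP reads (rank 802), and the Flag event 3 bp away had 299. At 102849320 there were 144 IP reads (rank 850) but 17.7 control reads, the most at any event of the window, and a fold of IP over control of 8.1, the lowest. The Flag event 2 bp away had 566 IP reads, 12.5 control reads and a fold of 45.4, the lowest Flag fold of the 7 pairs. Both tags thus had their lowest fold among the pairs here. Within the whole lists this fold stood at percentile 23.5 with V5 and 65.8 with Flag.

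At 102840498 there were 108.4 V5 IP reads, and 265.8 at the Flag event 3 bp away. At 102870473, the V5 event with fewest IP reads in the window, there were 67 (rank 3883), and 110.8 at the Flag event 15 bp away. The order of the 7 places by IP reads was the same in both lists, apart from the places at 102828564 and 102849320, once the Flag events within 200 bp were summed.

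**Figure D3:**
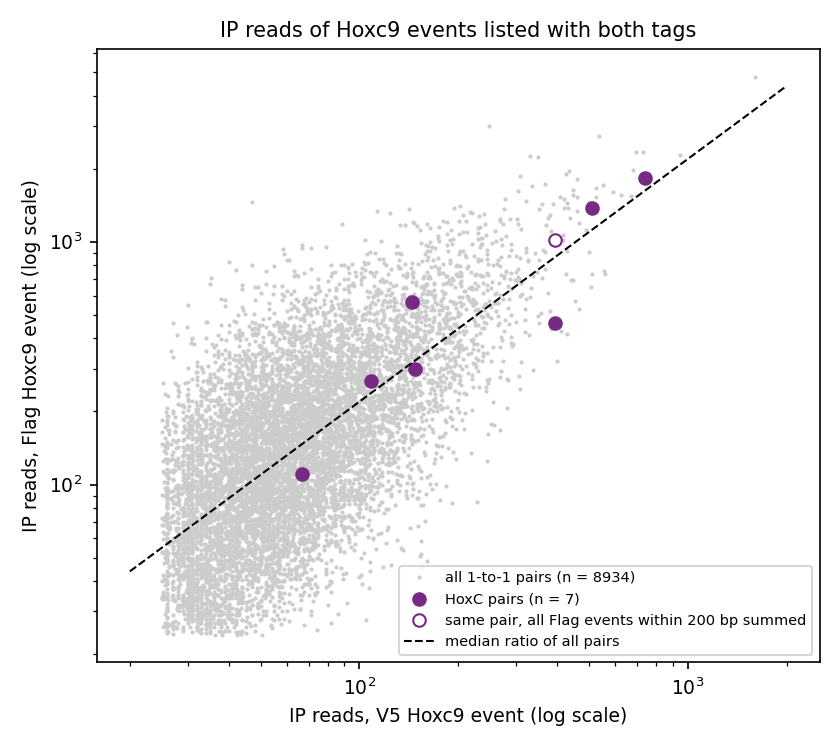
Flag Hoxc9 IP reads against V5 Hoxc9 IP reads, both on log scales, for 8934 pairs of mutually nearest events within 200 bp (grey) and the 7 HoxC pairs (purple), with the median ratio of all pairs as a dashed line. The HoxC pairs lie on both sides of the line, and the pair at 395 V5 IP reads moves above it when both Flag events are summed (open circle).

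The ratio of Flag to V5 IP reads at the HoxC pairs was like that over the lists. Its median was 2.45 over the 7 pairs, with a range of 1.17 to 3.93, and 2.19 over all 8934 pairs, with quartiles of 1.38 and 3.43. The lowest, 1.17, was at 102863377 and became 2.56 with both Flag events summed. The highest, 3.93, was at 102849320. Ratios between lists carry the depth of the libraries, which is unknown, so only their place among all pairs has a meaning here. The fold of IP over control was higher with Flag at all 7 pairs, beside 78.8% of all pairs.

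Positions were closer than in most of the list. The events of the 7 pairs lay 1 to 15 bp apart with a median of 3 bp, while the median was 21 bp over all 8934 pairs. Pairs at most 15 bp apart made up 39% of all pairs. Among the 3813 pairs with at least 67 V5 IP reads, the lowest number at the HoxC pairs, the median was 17 bp, and among the 799 with at least 148, their median, it was 14 bp. Distances thus fell with IP reads over the list, and the part of IP reads in the short distances at HoxC was not tested.

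The 4 Flag Hoxc9 events of the window with no V5 Hoxc9 event within 200 bp were all weaker than the 8 with one. They had 57 IP reads at 102823414, the fewest of a Flag event in the window, 75 at 102838468, 93.3 at 102863173 and 63.6 at 102863745. The 8 had between 110.8 and 1824, so the 2 sets did not overlap in the window. Over the whole Flag list they did, with shared events down to 24.1 IP reads and unshared ones up to 1686. Medians were 69.3 and 506.1 in the window, beside 51 and 131 over the whole Flag list. The event at 102863173 was 204 bp from a V5 event and so just outside the distance that counted as shared.

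By IP reads, Hoxc9 events of the cluster ranked high within their own lists, and Olig2 events less so. All 7 V5 Hoxc9 events and 11 of 12 Flag Hoxc9 events were above their list's median of IP reads (52.7 and 59), beside 50% and 49.5% of all events. In the top 1% of their list by IP reads were 3 of the 7 V5 events (0.994% of all events) and 2 of the 12 Flag events (0.998%). In the top 10% were 5 of the 7 (10% of all events) and 7 of the 12 (10%). For Olig2, 0 of 5 native events (1.01% of all events) and 0 of 2 V5 events (0.994%) were in the top 1%, and 0 of 5 (10.1%) and 1 of 2 (10%) in the top 10%. Of the native events, 2 of 5 were above the list's median, as was 1 of 2 V5 Olig2 events (50% of all events in each list). The median percentile was 92.7 for V5 Hoxc9 and 94.97 for Flag Hoxc9, against 36.8 for native Olig2 and 47.6 for V5 Olig2. The 2 V5 Olig2 events stood at opposite ends, at percentiles of 92.7 and 2.47. Ranked by fold, the order changed for V5 Olig2, whose median percentile of 77.7 was above the 68.1 of V5 Hoxc9 and the 67.5 of Flag Hoxc9, with native Olig2 at 34.7. The weaker V5 Olig2 event has control reads of 0, where the authors' table lists a fixed high value as the fold. By fold it stood at percentile 95.1, and the other V5 Olig2 event at 60.3, below both Hoxc9 medians. Percentiles by fold thus carry this fixed value.

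**Figure D4:**
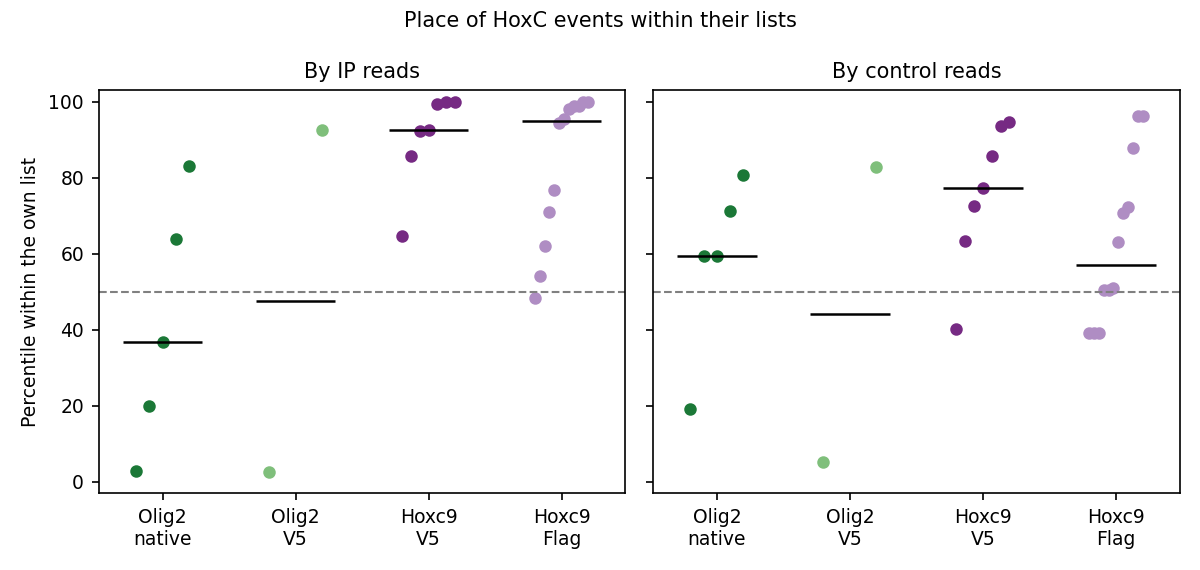
Percentile of each HoxC event within its own list by IP reads (left) and by control reads (right), with the median of the HoxC events as a bar and the list's median as a dashed line. Hoxc9 events lie mostly above 50 by IP reads, and 6 of 7 V5 Hoxc9 events also do so by control reads.

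Control reads were above the list's median at most V5 Hoxc9 events of the window. The V5 Hoxc9 events of the window had 2.9 to 17.7 control reads with a median of 8.8, against 2.9 over the list. Above that median were 6 of 7, beside 48.8% of all events, and 6 of 7 had more than 5.8, 2 times the list's median, beside 43% of all events. For Flag Hoxc9, 4 of 12 had more than 4.8, beside 28.9% of all events. Set against events elsewhere whose IP reads were within 1.2 times their own, 2 of the 7 V5 events and 5 of the 12 Flag events had control reads above the median of those, as did all 5 native Olig2 events and 1 of 2 V5 Olig2 events. The share of all events that do so was not computed. At the native Olig2 events, 51.3 to 68.8% of the like events had fewer control reads, so these lay little above the middle. At 102849320 the 17.7 control reads stood against a median of 8.85 at 748 V5 events of like IP reads. The 12.5 at its Flag partner stood against 4.5 at 490. The fold remained above the list's median of 13.1 at 6 of 7 V5 events (49.9% of all events), with a range of 8.1 to 44.7. It was above 22.1 at 11 of 12 Flag events (49.7% of all events), with a range of 19.8 to 216.3. The part of local control signal in these events was not tested.

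Olig2 had 7 events in the cluster, 3 of them above their list's median of IP reads, and 1 place was given by both antibodies. At 102860709 the native list had 66 IP and 2.1 control reads and rank 2621 of 15700, the highest native event of the window. The V5 Olig2 event 20 bp away at 102860729 had 149 IP and 6.2 control reads and ranked 806 of 11071. Its ratio of V5 to native IP reads, 2.26, stood at percentile 90.2 of the 8358 pairs of Olig2 events, whose median was 1.25. The nearest V5 Hoxc9 event was 2648 bp from the V5 Olig2 event, so this was an Olig2 place without a listed Hoxc9 event beside it.

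The other Olig2 events were in 1 list only. The native list had 40 IP reads at 102863312, 26 at 102867058, 21 at 102846264 and 15.4 at 102865805, the last of these ranked 15266 of 15700. The V5 Olig2 event at 102864425 had 17.5 IP reads, control reads of 0 and rank 10798 of 11071. Thus 1 of 5 native events had a V5 Olig2 event within 200 bp, beside 56.7% over the native list, and 1 of 2 V5 events had a native one, beside 78.1%. With 5 and 2 events, these shares have intervals of 0.505 to 71.6% and 1.26 to 98.7%. The native and V5 Olig2 lists differed in both doxycycline and antibody, which cannot be told apart.

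Chaining events within 200 bp over the 4 lists gave 14 places in the window. Events of Hoxc9 alone made up 8 of them, 5 with both tags and 3 with Flag alone. Olig2 alone had 4, of which 1 was in both lists, 2 in the native list and 1 in the V5 list. The remaining 2 held native Olig2, V5 Hoxc9 and Flag Hoxc9 events, and no place held all 4 lists.

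The places of both factors were those at 102863377 and 102865795 of the V5 Hoxc9 list, next to the highest one in IP reads and on the side of Hoxc4. Between 102863173 and 102863385 lay the native Olig2 event with 40 IP reads, 19 bp from the Flag Hoxc9 event at 102863331 and 65 bp from the V5 Hoxc9 event. Between 102865792 and 102865805 lay the native Olig2 event with 15.4 IP reads, 10 bp from the V5 Hoxc9 and 13 bp from the Flag Hoxc9 event. The strongest Hoxc9 place, at 102845099, had its nearest native Olig2 event 1165 bp away, and no V5 Olig2 event lay within 200 bp of any Hoxc9 event of the window. So the native list put an Olig2 event above its median of IP reads (31.6) at one of these Hoxc9 places and an event far below it at the other, and the V5 Olig2 list had none at either.

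Counted by event, 2 of 5 native Olig2 events had a V5 Hoxc9 event within 200 bp (12.5% over the native list) and 2 had a Flag Hoxc9 event (29.8%). Of the Hoxc9 events, 2 of 7 with V5 (16.5% over that list) and 4 of 12 with Flag (10.1%) had a native Olig2 event, and 0 of 7 (11.1%) and 0 of 12 (6.62%) a V5 Olig2 event. The 4 Flag events include neighbours next to the same native Olig2 event at 102863312. With neighbouring events chained the Flag share was 2 of 10, and at 100 bp it was 3 of 12. Of the V5 Olig2 events, 0 of 2 had a V5 Hoxc9 event (11.6%) and 0 of 2 a Flag Hoxc9 event (27.3%). The Olig2 and Hoxc9 lists differed in day and line, which cannot be told apart from the factor. The native Olig2 list also differed from both Hoxc9 lists in doxycycline and antibody, and the V5 Olig2 list from the Flag Hoxc9 list in antibody. These cannot be told apart from the factor either.

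The edges of the window were set by position, and events went on beyond its high end. In the 20 kb below the window no list had an event, and the nearest was a Flag Hoxc9 event 78.8 kb below it with 35.8 IP reads. In the 20 kb above it there were 9 Flag Hoxc9, 5 V5 Hoxc9, 2 native Olig2 and 3 V5 Olig2 events. The Hoxc9 events there were weaker than the top places inside, with at most 215.6 Flag IP reads at 102890944 and 151 V5 IP reads at 102899796. For Olig2, 119 native IP reads at 102892139 (rank 980) were more than at any native event inside, and 70.7 V5 IP reads at 102892138 were fewer than at the stronger V5 event inside.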

How the data were processed

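Reads were aligned with Bowtie 0.12.5 to mm9, per the submitters' processing notes. Events bear the name GPS_PEAK in the deposited interval lists, so the caller was GPS by name. Its version, settings and control library are not stated in the sources used. Per the file headers, the authors' tables hold, for each event, an estimated count of IP reads and one of control reads, their ratio (fold, listed as 9999.9 at most events with control reads of 0) and the −log10 of p and q. Deposited score columns were not used. Library totals are not in these tables, so depth is unknown and IP reads were ranked within a list only.

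Positions are printed as deposited. Events were called shared within 200 bp, pairs were mutually nearest events, and windows were laid along the placed chromosomes between the outermost events. Unplaced contigs entered list totals only. Figures used matplotlib 3.10.9 and computations SciPy 1.17.1, pandas 2.3.3 and numpy 2.4.6 in Python 3.11.15. The matching of events was tested on simulated data. Named events were the 5 of each list with most IP reads, those with fewest and all in places of 3 lists; the others were named after their values were seen. The members and lists were chosen with earlier results of these data known. The comparisons with all windows, of pair ratios and distances, of ranks in the top 1% and 10% and of control reads were chosen after seeing the data. Motifs were not searched and proteins not compared, since mm9 sequence and a protein table were not used here.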

Additional observations from a re-analysis of the deposited data

How the results depend on the processing

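Counts of events depended on the edges and filters, given here for the 2 Olig2 lists (native, V5) and then the 2 Hoxc9 lists (V5, Flag). Edges moved in by 20 kb on each side left 1, 0, 4 and 6 events, and edges moved out by 20 kb gave 7, 5, 12 and 21. Control reads at or below the list's median left 1, 1, 1 and 3. Thus 6 of 7 V5 Hoxc9 events had control reads above that median, beside 48.8% of all events. The like share over the Flag list was not computed. Against events of like IP reads, 2 of 7 V5 and 5 of 12 Flag Hoxc9 events had control reads above the median. The 10000 events with most IP reads left 3 native Olig2, 1 V5 Olig2 and 7 Flag Hoxc9 events. Then 100% of Flag events (7 of 7) had a V5 Hoxc9 event. Also 100% of V5 Olig2 events had a native one, but this was 1 of 1 event. V5 Hoxc9 events with a Flag event went from 7 of 7 to 6 of 7 (85.7%). The like shares over all events of lists reduced to 10000 events were not computed. Those given above are for the full lists and are no background for these. With the narrower edges, the shares between native Olig2 and each other list were 0%, since the places shared with native Olig2 lie outside them. Ranked by p, the median percentiles were 34.1 for native Olig2, 52.3 for V5 Olig2 and 94.4 for V5 Hoxc9. Ranked by fold they were 34.7, 77.7, 68.1 and 67.5, so by fold the place of Hoxc9 events is lower. The V5 Olig2 median is above it only through the event with control reads of 0. Its fixed fold put it at percentile 95.1, while the other V5 Olig2 event stood at 60.3. With the narrower edges the native Olig2 median was 20.02. Of 127 alternatives over 30 results, 98 were within the limits set and 29 moved. The limits were 1.5 times for counts, the 95% interval for percentages and 1 SD over the pairs for ratios and distances. For shares the interval was set by the few HoxC events, for median percentiles by all events of the list, and for windows by all windows. The intervals for percentiles are thus narrow and do not measure the spread over HoxC events, so the tallies mix unlike limits. With so few events the intervals of the shares are wide, and V5 Olig2 events with a Flag Hoxc9 event went from 0% to 50% at 1000 bp within them. Windows moved by 70 kb, summed Flag reads and other pairing limits were chosen after seeing the data and gave values within the limits. No V5 Olig2 event remained within the narrower edges, so its shares and percentile have no value there. No paired analysis was possible because each condition had 1 list.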
